A study of Mus musculus with 7 samples.

Results

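The genes described here encode the Wnt ligands (*Wnt*), their Frizzled receptors (*Fzd*), the Dishevelled proteins that relay the signal inside the cell (*Dvl*), and the secreted antagonists of the Sfrp and Dickkopf families (*Sfrp*, *Dkk*). Members were all genes of the array whose name starts with *Wnt*, *Fzd*, *Dvl*, *Sfrp* or *Dkk* followed by a digit, which gave 40 genes read by 47 probes, of 35715 genes on the array. There were 19 *Wnt*, 10 *Fzd*, 3 *Dvl*, 4 *Sfrp* and 4 *Dkk* genes. Untreated C57BL/6J mice, 4 weeks old, were studied by oligonucleotide arrays of a single dye, on which the RNA of each whole liver was read separately. As *Rbpj*+/+ served 4 *AlfpCre*- *Rbpj* flox/flox mice without cholestasis (arrays +/+_1155, +/+_1156, +/+_1024 and +/+_991), and as *Rbpj*-/- 3 *AlfpCre*+ *Rbpj* flox/flox mice with cholestatic liver (arrays -/-_N3, -/-_N5 and -/-_2866). The floxed allele was therefore carried by the controls too, while Cre, driven by the Alfp transgene in the liver, was present in the *Rbpj*-/- mice only. Every comparison asked how these genes differed between *Rbpj*-/- and *Rbpj*+/+ liver, and differences in genotype, Cre and cholestasis cannot be told apart.

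Wnt proteins are lipid-modified in the secreting cell, carried to its surface and bound by a Frizzled receptor together with the co-receptor LRP5 or LRP6. Dishevelled then recruits the complex that otherwise destroys β-catenin, so that β-catenin accumulates and switches on target genes with TCF factors. Secreted Frizzled-related proteins capture Wnt ligands outside the cell, whereas several Dickkopf proteins block the co-receptor. In the liver, the pathway is known for keeping up the gene program of the hepatocytes around the central vein, where endothelial cells release Wnt2 and Wnt9b.

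Values are log2 intensities after subtraction of each array's 75th percentile, so that 0 stands for this percentile, and they are not compared between genes because each probe has its own brightness. The scanner software marked on each array which probes were well above background. A gene was tested when a probe of it carried this mark on all arrays of at least 1 genotype, and its brightest tested probe stood for it. SE denotes the standard error of a log2 fold change. A Benjamini-Hochberg adjusted p below 0.1 from limma, over all 24550 tested probes of the array, was taken as differential expression. On the *Rbpj*+/+ arrays 49.5% to 70.0% of all genes were well above background and on the *Rbpj*-/- arrays 54.5% to 72.7%. The highest shares were those of +/+_1156 and -/-_N3, whose median intensities of 18.7 and 29.6 stood apart from 4.99 to 7.75 on the other 5 arrays. The *Rbpj* probe (mm9, chromosome 5, 54048503 to 54048562) read 0.97, 0.29, 0.33 and 0.81 in *Rbpj*+/+ and −0.35, −0.78 and −0.48 in *Rbpj*-/- liver, with no overlap (limma adjusted p = 0.0115), and whether it lies in the deleted part of the gene is not given in the sources used here. All 7 hepatocyte marker genes examined (*Alb*, *Apoa1*, *Ttr*, *Hnf4a*, *Tat*, *Cps1*, *Asgr1*) were well above background on all 7 arrays. The 4 *Rbpj*+/+ arrays filled 1 row of the slide and the 3 *Rbpj*-/- arrays the other, so row and genotype cannot be told apart.

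What each probe reads is shown first, since the value of a gene rests on a single stretch of its transcript. The 3′ part of the deposited probe sequence, 30 of 60 bases, is given for 6 of the 7 genes that passed the test, and for both probes of *Wnt1*, *Wnt4* and *Fzd7*, where detection differed between the probes of the same gene. Capitals mark AATAAA, the canonical polyadenylation signal, which lies in the part shown of the brighter *Wnt1* probe and of the *Fzd3* probe.
Wnt10a, chromosome 1 from 74850633 to 74850692 (mm9, plus strand): ctctttgagacactctctggggaaaaagaa
Wnt9b, chromosome 11 from 103588882 to 103588941 (minus strand): cacccatgaacgtccatgcttcctgtctga
Wnt1, brighter probe, chromosome 15 from 98624201 to 98624260 (plus strand): cttcctctgaggAATAAAatatctattttt
Wnt1, dimmer probe, chromosome 15 from 98623276 to 98623335 (plus strand): cacacgcgcgttctgcacgagtgtctatga
Wnt4, brighter probe, chromosome 4 from 136855342 to 136855401 (plus strand): acggcatagtctgagatgcacgataaaaat
Wnt4, dimmer probe, with no position in the array's design: catcttgacacacatgcgggtggagtgcaa
Fzd3, chromosome 14 from 65854084 to 65854142 (minus strand): cgatgAATAAAattgaaggtgacaatattg
Fzd7, brighter probe, chromosome 1 from 59543192 to 59543251 (plus strand): agttctttgaaatgtgctagaagacttaca
Fzd7, dimmer probe, chromosome 1 from 59541367 to 59541426 (plus strand): tacctgatgaccatgatcgtgggcatcact
Dvl3, chromosome 16 from 20531470 to 20531529 (plus strand): gcctcggtgcccccggaactgacggccagc
Dkk3, chromosome 7 from 119259556 to 119259615 (minus strand): taaagagatgtaaacatttaggaaaacaat

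Positions were taken from the array's own annotation (mm9). The exons of that build were not used here, so whether a probe lies in coding sequence or UTR is not stated. The share of G and C over the whole 60 bases ranged from 35% for the *Wnt10a* and *Dkk3* probes to 76.7% for the *Dvl3* probe. None of these 11 probes shared a run longer than 15 bases with the probe of another gene on the array. The probes of *Wnt1* lie 925 bases apart. The brighter was well above background on all 7 arrays and the dimmer on 0. The probes of *Fzd7* lie 1825 bases apart and were well above background on 7 arrays and on 1. The dimmer *Wnt4* probe was well above background on 3 arrays, against 7 for the brighter. Probes differ in brightness by their sequence, so their levels were not compared, and the direction of the difference between the genotypes could be tested on the brighter probe only.

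A large part of the ligand and antagonist genes could not be tested in whole liver. Over all members the share tested was 50%, close to the 52.6% of all genes of the array. Of the 40 genes, 15 were well above background on all 7 arrays, 20 could be tested, and 7 were well above background on no array (*Wnt2b*, *Wnt3*, *Wnt3a*, *Fzd9*, *Fzd10*, *Sfrp4*, *Dkk2*). The other 13 were well above background on too few arrays to be tested. Of the receptors, 7 of 10 were tested, and of the Dishevelled genes 3 of 3. Of the ligands, 9 of 19 were tested, against 1 of 4 Dickkopf and 0 of 4 *Sfrp* genes. The number of genes well above background was 21, 23, 17 and 17 of 40 on *Rbpj*+/+ arrays +/+_1155, +/+_1156, +/+_1024 and +/+_991. It was 31, 21 and 21 on *Rbpj*-/- arrays -/-_N3, -/-_N5 and -/-_2866. In the same order, these were 52.5%, 57.5%, 42.5% and 42.5%, and 77.5%, 52.5% and 52.5% of the members. Of all genes of the array, the shares were 55.7%, 70.0%, 49.5% and 52.5%, and 72.7%, 56.2% and 54.5%.

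**Figure D1:**
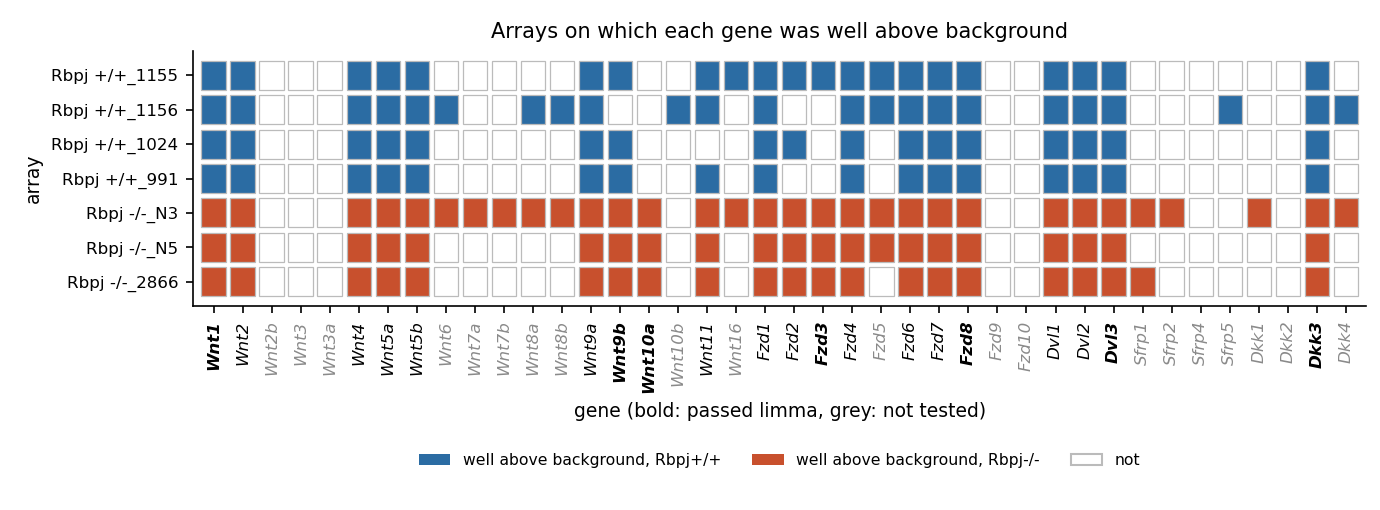
Each column is a gene and each row an array, and a filled square marks a gene with a probe well above background on that array (blue for Rbpj+/+, orange for Rbpj-/-). Arrays +/+_1156 and -/-_N3 hold most of the squares among the genes in grey, which were not tested, and 31 of 40 columns are filled on -/-_N3.

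Detection of the dim genes followed single arrays. Among the 23 probes of the 20 untested genes there were 25 marks in all, 20 of them on arrays +/+_1156 or -/-_N3, and 10 genes were well above background on no other array. *Wnt6*, *Wnt8a*, *Wnt8b* and *Dkk4* were so on both +/+_1156 and -/-_N3, *Wnt10b* and *Sfrp5* on +/+_1156, and *Wnt7a*, *Wnt7b*, *Sfrp2* and *Dkk1* on -/-_N3. *Wnt16* was well above background on +/+_1155 and -/-_N3. *Sfrp1*, a Wnt-binding antagonist, was well above background on -/-_N3 and -/-_2866 and on no *Rbpj*+/+ array, with values of −5.16, −3.10, −3.45 and −5.18 in *Rbpj*+/+ and −1.93, −4.86 and −2.75 in *Rbpj*-/- liver. These values overlap between the genotypes, and with 1 *Rbpj*-/- array at background the gene was not tested. *Fzd5*, a receptor known from intestinal and liver epithelium, reached 2 arrays of each genotype, with values from −3.38 to −2.32 in *Rbpj*+/+ and from −3.62 to −2.23 in *Rbpj*-/- liver. Arrays +/+_1156 and -/-_N3 also had the brightest dim probes of the series, and the part of this in the detection of single genes was not tested.

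Of the 20 tested genes, 7 were differentially expressed (35%), 4 higher (*Wnt9b*, *Wnt10a*, *Fzd3*, *Dkk3*) and 3 lower (*Wnt1*, *Fzd8*, *Dvl3*) in *Rbpj*-/- liver. Among all 18772 tested genes the share was 34.2%, with 14.6% higher and 19.6% lower, so the share among the members was close to that of the array. The members had a median log2 fold change of −0.13, also with *Wnt10a* at its bound (described with the ligands), equal to the −0.13 of all tested genes at this precision. Separation of all *Rbpj*-/- from all *Rbpj*+/+ values was found in the same 7 genes, again 35%, against 36.5% of all tested genes. With dim probes kept in the test, 3 of 40 passed (7.5%), against 4.6% of all 35715 genes. At an adjusted p below 0.05, 5 of the 20 passed, against 23.6% of all tested genes, and 8 (40%) had an unadjusted p below 0.05, against 38.9% of all tested genes.

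The filter bears on this count. Passing it through the *Rbpj*-/- arrays alone was found for 5 members (25%), *Wnt9b*, *Wnt10a*, *Wnt11*, *Fzd2* and *Fzd3*, and through the *Rbpj*+/+ arrays alone for 0. Among all tested genes these numbers were 1845 (9.83%) and 370 (1.97%), so entry through the *Rbpj*-/- arrays alone was more frequent among the members. A gene that is dim in *Rbpj*+/+ liver enters the test only if it is bright in *Rbpj*-/- liver, and 3 of the 4 higher members entered in this way. Of the 15 members well above background on all 7 arrays, 1 was higher and 3 were lower, which is 26.7%, against 33.3% of the 16557 such genes of the array, 12.5% higher and 20.8% lower.

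**Figure D2:**
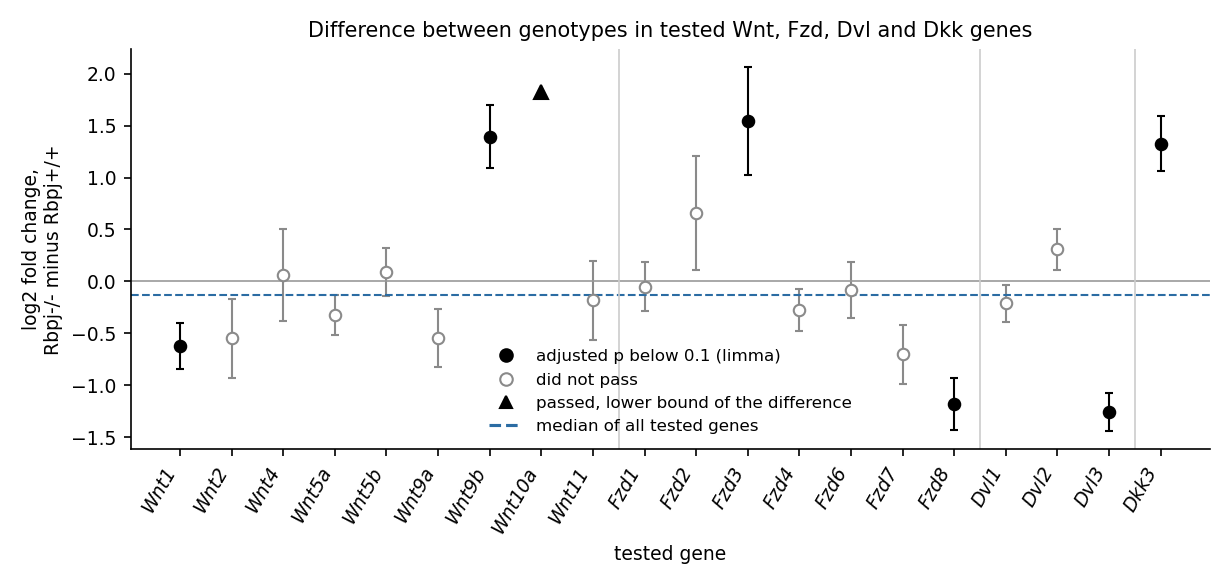
Points are the log2 fold changes of the 20 tested genes, Rbpj-/- minus Rbpj+/+, and bars their standard errors from limma, with families separated by vertical lines. Wnt10a is drawn as a triangle without a bar at 1.82, the lower bound of its difference, Dvl3 lies lowest at −1.26, and the median of all tested genes is −0.13.

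Among the ligands, *Wnt10a* was higher in *Rbpj*-/- liver. It encodes a ligand that acts through β-catenin and is known from skin, tooth and hair development. It read −6.01, −5.34, −4.99 and −5.13 in *Rbpj*+/+ and −0.71, −1.95 and −2.10 in *Rbpj*-/- liver. Every *Rbpj*-/- value lay far above every *Rbpj*+/+ value, with -/-_N3 the highest. The gene was well above background on 0 of 4 *Rbpj*+/+ and 3 of 3 *Rbpj*-/- arrays, so that only a bound of the fold change was measured. Set against the mean, per *Rbpj*+/+ array, of the higher of the probe's own value and the lowest signal well above background, expression was at least 3.53-fold higher in *Rbpj*-/- liver (limma adjusted p = 0.000649, exact two-sided permutation p = 0.0286, the smallest that 4 against 3 animals allow). With normexp background correction the bound was 1.24-fold and the adjusted p 0.0983, and without -/-_N3 the bound was 2.60-fold. *Wnt10a* entered the test through the *Rbpj*-/- arrays alone, and its p-values were computed on *Rbpj*+/+ values at background.

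*Wnt9b*, with Wnt2 a ligand of the endothelium of the central vein, read −2.57, −3.06, −1.76 and −2.09 in *Rbpj*+/+ and −1.14, −0.96 and −0.83 in *Rbpj*-/- liver. The *Rbpj*-/- values were close together and all higher than the *Rbpj*+/+ values, of which the lowest, on +/+_1156, was not well above background. The log2 fold change was 1.39 (SE 0.30, limma adjusted p = 0.0138), and the exact two-sided permutation p was 0.0571. These p-values belong to a gene that entered the test through the *Rbpj*-/- arrays alone. The gene did not pass with normexp background correction, where the log2 fold change was 0.20 (adjusted p = 0.317), nor with quantile normalization (1.58, adjusted p = 0.137), the series matrix (1.58, adjusted p = 0.139) or with dim probes kept in the test (adjusted p = 0.117).

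*Wnt2*, the other ligand of the central vein, did not pass. It read −3.37, −2.75, −1.55 and −2.61 in *Rbpj*+/+ and −3.04, −3.36 and −2.95 in *Rbpj*-/- liver, with overlapping values and a log2 fold change of −0.55 (SE 0.38, limma adjusted p = 0.321). Both ligands are therefore measurable at this age, and with the processing used here a difference was called for *Wnt9b* only. With normexp background correction it was *Wnt2* that passed, as lower (−0.39, limma adjusted p = 0.0944), and *Wnt9b* did not. Which of the 2 ligands was called therefore depended on the background correction. The difference between their changes was not tested.

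*Wnt1*, the founding ligand of the family, read −0.37, 0.0073, 0.068 and −0.42 in *Rbpj*+/+ and −1.05, −0.52 and −0.84 in *Rbpj*-/- liver on its brighter probe. All *Rbpj*-/- values were lower, but the gap between +/+_991 and -/-_N5 was only 0.094. The log2 fold change was −0.62 (SE 0.22, limma adjusted p = 0.0707, exact two-sided permutation p = 0.0286). The call was lost under 9 of 19 alternatives, with an adjusted p between 0.0507 and 0.307 over all of them. Among these were the fits without +/+_1156 (adjusted p = 0.102), +/+_1024 (0.170), -/-_N3 (0.210) and -/-_2866 (0.157). The dimmer probe, 925 bases away, was not well above background on any array, with values from −6.14 to −3.94.

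The other 5 tested ligands did not pass. *Wnt5a*, which acts largely without β-catenin, read −0.74, −1.07, −0.90 and −0.70 in *Rbpj*+/+ and −1.02, −1.11 and −1.39 in *Rbpj*-/- liver (log2 fold change −0.32, limma adjusted p = 0.251). Its paralogue *Wnt5b* lay between 1.48 and 2.32 in *Rbpj*+/+ and between 1.85 and 2.12 in *Rbpj*-/- liver (0.087, limma adjusted p = 0.806). For *Wnt4*, the *Rbpj*-/- animals were spread wider than the difference between the groups, at 0.90 on -/-_N3, −0.42 on -/-_N5 and −1.26 on -/-_2866, against −0.68 to −0.098 in *Rbpj*+/+ liver (0.062, SE 0.44). Its dimmer probe gave the same order of these 3 animals, at −1.30, −2.87 and −3.89, the last of them not well above background. *Wnt11* lay between −2.82 and −2.46 in *Rbpj*+/+ liver and at −1.77, −3.56 and −3.19 in *Rbpj*-/- liver (−0.18, adjusted p = 0.756). *Wnt9a* had a log2 fold change of −0.54 (adjusted p = 0.189). The threshold was passed by *Wnt11* without -/-_N3 (−0.72, limma adjusted p = 0.0754) and by *Wnt9a* without +/+_1156 (−0.76, adjusted p = 0.0398). *Wnt9a* passed in 4 of 19 alternatives. With all animals kept, these were normexp background correction (−0.42, adjusted p = 0.0381) and array weights (−0.70, adjusted p = 0.0389). *Wnt5a* passed with array weights only (−0.40, adjusted p = 0.0959).

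**Figure D3:**
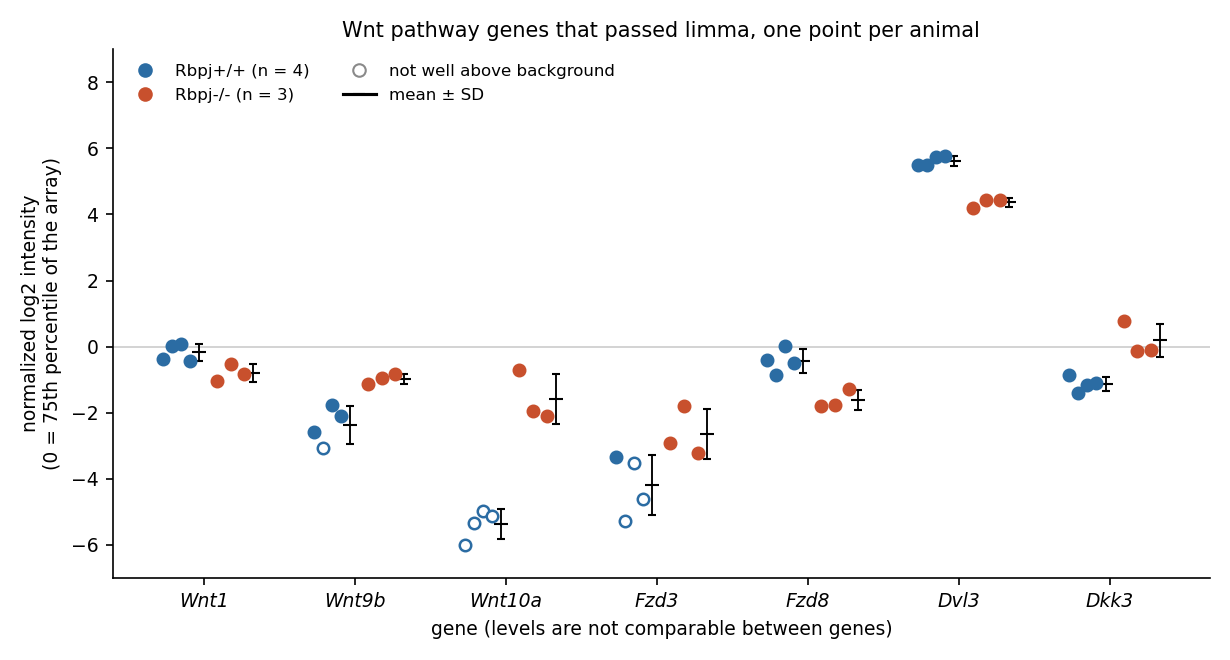
Points are the normalized log2 intensities of single animals for the 7 genes that passed limma (blue Rbpj+/+, n = 4, orange Rbpj-/-, n = 3), open where the probe was not well above background, with mean and SD beside them. The genotypes do not overlap in any of the 7 genes, and all 4 Rbpj+/+ points of Wnt10a are open.

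Of the receptors, *Fzd8* was lower and *Fzd3* higher in *Rbpj*-/- liver. *Fzd8*, a receptor that forms the signalling complex with LRP6, read −0.41, −0.85, 0.025 and −0.51 in *Rbpj*+/+ and −1.81, −1.76 and −1.28 in *Rbpj*-/- liver. It was well above background on every array, and the genotypes did not overlap. Its log2 fold change was −1.18 (SE 0.25, limma adjusted p = 0.0125, exact two-sided permutation p = 0.0286), which corresponds to 2.27-fold lower expression, and of 19 alternatives the call was lost only where dim probes were kept in the test (adjusted p = 0.112).

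*Fzd3*, a receptor known from axon guidance and planar polarity, read −3.36, −5.28, −3.53 and −4.61 in *Rbpj*+/+ and −2.93, −1.79 and −3.23 in *Rbpj*-/- liver. The genotypes were separated by 0.12 only, between +/+_1155 and -/-_2866, and 1 of 4 *Rbpj*+/+ arrays was well above background. The log2 fold change was 1.54 (SE 0.52, limma adjusted p = 0.0603, exact two-sided permutation p = 0.0857). *Fzd3* entered the test through the *Rbpj*-/- arrays alone. It did not pass without -/-_N5 (1.11, adjusted p = 0.210), +/+_991 (1.40, adjusted p = 0.123) or -/-_N3 (1.68, adjusted p = 0.106). With normexp background correction it turned to −0.11 (adjusted p = 0.580). The direction of *Fzd3* therefore depended on how signals near background were treated.

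*Fzd7*, a receptor expressed in progenitor cells of many epithelia, stood just outside the threshold. It read 0.21, −0.82, −0.14 and 0.18 in *Rbpj*+/+ and −0.71, −1.13 and −0.68 in *Rbpj*-/- liver, where +/+_1156 was the only *Rbpj*+/+ array among the *Rbpj*-/- values. The log2 fold change was −0.70 (SE 0.28, limma adjusted p = 0.103). Without +/+_1156 it was −0.93 (adjusted p = 0.0202), and it passed in 8 of 19 alternatives. *Fzd4*, a receptor of the endothelium, lay between 2.76 and 3.31 in *Rbpj*+/+ and between 2.56 and 2.89 in *Rbpj*-/- liver (−0.27, SE 0.20). *Fzd1* and *Fzd6* had log2 fold changes of −0.050 and −0.083, while *Fzd2*, whose tested probe was well above background on 1 of 4 *Rbpj*+/+ arrays, had 0.66 (SE 0.55). None of these 4 receptors passed. The other *Fzd2* probe went the opposite way, with a mean difference of −1.24 on the log2 scale. It was well above background on +/+_1024 only and was not tested.

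Of the Dishevelled genes only *Dvl3* was called. Its values were 5.48, 5.51, 5.73 and 5.78 in *Rbpj*+/+ and 4.21, 4.44 and 4.45 in *Rbpj*-/- liver. The spread within each genotype was small, at 0.15 (SD, n = 4) and 0.14 (SD, n = 3), against a gap of 1.03 between them. The log2 fold change was −1.26 (SE 0.18, limma adjusted p = 0.00286), 2.39-fold lower in *Rbpj*-/- liver, and it passed under all 19 alternatives with values from −1.30 to −0.95. *Dvl1* lay between 3.25 and 3.43 in *Rbpj*+/+ and between 2.95 and 3.27 in *Rbpj*-/- liver, and *Dvl2* between −0.78 and −0.55 and between −0.56 and 0.0086. Neither passed, with log2 fold changes of −0.21 and 0.31 (limma adjusted p = 0.412 and 0.291).

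Of the secreted antagonists within the *Sfrp* and *Dkk* families, *Dkk3* was the only gene that could be tested. It encodes a divergent Dickkopf protein that differs from the others in not being an established blocker of LRP6. It read −0.87, −1.40, −1.17 and −1.10 in *Rbpj*+/+ and 0.77, −0.13 and −0.093 in *Rbpj*-/- liver. Every *Rbpj*-/- value was higher, and -/-_N3 was again the highest. The log2 fold change was 1.32 (SE 0.26, limma adjusted p = 0.00992, exact two-sided permutation p = 0.0286), 2.50-fold higher, and it passed under all 19 alternatives, with 0.57 under normexp background correction as the lowest value.

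The remaining genes of the pathway were read from 7 lists, chosen with earlier results of these data known. The lists hold 65 genes in total, of which 49 were tested. Differential expression was found in 19 of them (38.8%), 5 higher and 14 lower, with a median log2 fold change of −0.33, against 34.2% and −0.13 of all tested genes, while the number was 12 without -/-_N5 and 5 with dim probes kept in the test. On the side of ligand release, *Wls*, the carrier that brings Wnt proteins to the cell surface, read −0.71, −1.12, −0.60 and −0.68 in *Rbpj*+/+ and 0.65, 0.30 and −0.0031 in *Rbpj*-/- liver. All *Rbpj*-/- values were higher (log2 fold change 1.10, limma adjusted p = 0.0111). *Porcn*, the enzyme that attaches the lipid to Wnt proteins, moved the other way, from a range of −0.013 to 0.30 to a range of −0.92 to −0.26 (−0.80, adjusted p = 0.0300). Of the 7 tested genes of release and co-receptors, 3 were lower, which next to *Porcn* were the co-receptor genes *Lrp6* (−0.75) and *Ptk7* (−1.32).

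**Figure D4:**
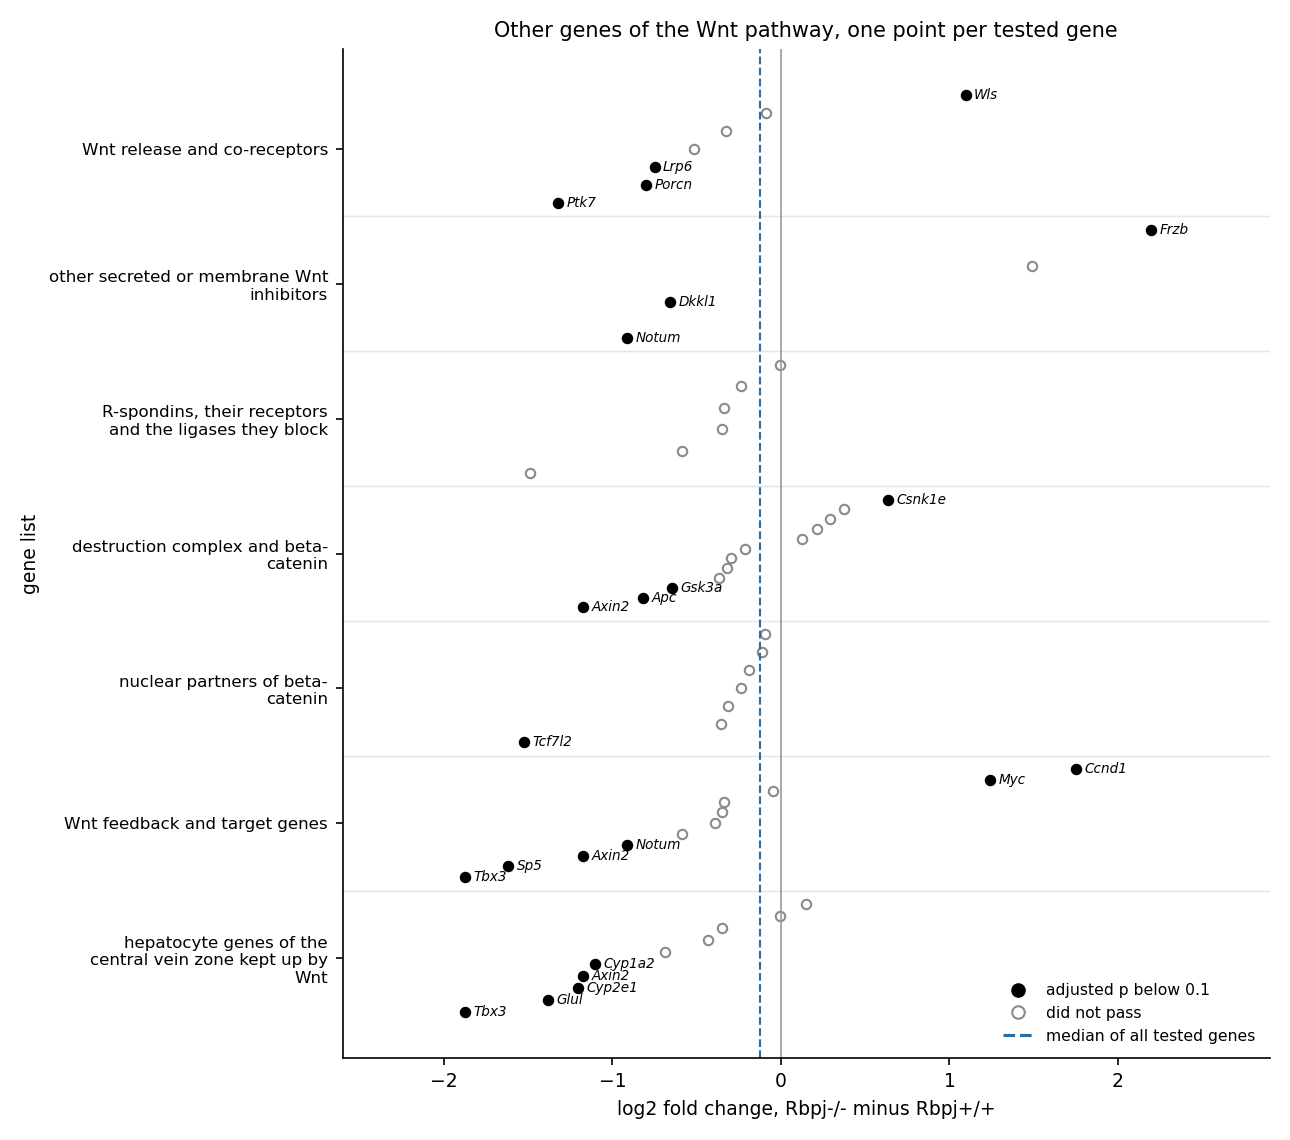
Points are the log2 fold changes of the tested genes of 7 pathway lists, Rbpj-/- minus Rbpj+/+, black and named where the adjusted p from limma was below 0.1. Genes that belong to several lists are drawn in each, and all named points of the central vein list lie to the left of 0.

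Among other inhibitors, 4 of 11 genes were tested, 1 of them higher and 2 lower. *Frzb*, which encodes a secreted Frizzled-related protein, read −2.05, −3.75, −2.82 and −2.57 in *Rbpj*+/+ and −0.036, −0.61 and −1.15 in *Rbpj*-/- liver, with 2 of 4 *Rbpj*+/+ arrays well above background (log2 fold change 2.20, limma adjusted p = 0.00769). It entered the test through the *Rbpj*-/- arrays alone, and its log2 fold change was 0.45 with normexp background correction (adjusted p = 0.0678) and 1.60 without both +/+_1156 and -/-_N3 (0.0269). *Notum*, a target gene whose enzyme removes the lipid from Wnt proteins, lay between 3.99 and 4.84 in *Rbpj*+/+ and between 3.19 and 3.76 in *Rbpj*-/- liver (−0.91, adjusted p = 0.0368), and *Dkkl1* fell by 0.66 on the log2 scale. The median of these 4 genes was 0.42, but −0.25 with normexp background correction. The call of *Notum* was lost without -/-_N3 (adjusted p = 0.118) or -/-_N5 (0.124), and that of *Dkkl1* without +/+_1024 (0.114), -/-_N3 (0.101) or -/-_N5 (0.159), with quantile normalization (0.163) and in the series matrix (0.169). Of the R-spondin system, which raises the number of Frizzled receptors at the surface, 6 genes were tested by limma and 0 passed, 0 of them with an unadjusted p below 0.05. *Rspo3*, the R-spondin of the central vein, lay between 0.61 and 1.34 in *Rbpj*+/+ and between 0.94 and 1.05 in *Rbpj*-/- liver. Its receptor gene *Lgr5* lay between 0.14 and 1.05 and between −0.27 and 0.37 (−0.35, adjusted p = 0.374).

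Inside the cell, *Ctnnb1*, the gene of β-catenin itself, did not pass (log2 fold change 0.38, SE 0.27, limma adjusted p = 0.340). Of 12 tested genes of the destruction complex, *Axin2* (−1.17), *Apc* (−0.82) and *Gsk3a* (−0.64) were lower and the kinase gene *Csnk1e* (0.64) was higher. The limma call of *Csnk1e* held in 8 of 19 alternatives and, of the fits without 1 animal, only without +/+_1156 or -/-_2866 (adjusted p up to 0.230 without -/-_N3). That of *Apc* was lost without +/+_1024 (adjusted p = 0.112) or -/-_N5 (0.175), and that of *Gsk3a* without +/+_1024 (0.116) or -/-_N3 (0.147). Of 7 tested nuclear partners, *Tcf7l2*, the TCF factor of hepatocytes, was lower at −0.34, −0.76 and −0.96 against 0.056, 1.28, 1.33 and 0.68 (−1.52, adjusted p = 0.0136).

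Target genes went in both directions. Of 11 tested, 4 were lower and 2 higher (54.5% called, against 34.2% of all tested genes). With quantile normalization and in the series matrix, 3 were lower and 1 higher. This list, too, was chosen with earlier results of these data known, so its share cannot show an excess. *Axin2*, the feedback target that responds in most tissues, read −0.61, −1.28, −0.98 and −0.62 in *Rbpj*+/+ and −2.47, −2.37 and −1.30 in *Rbpj*-/- liver. The genotypes were 0.028 apart, between +/+_1156 and -/-_2866, and the log2 fold change of −1.17 had a limma adjusted p of 0.0301. The call was lost without -/-_N3 (adjusted p = 0.104) or -/-_N5 (0.117), with quantile normalization (0.169) and in the series matrix (0.173). *Tbx3* fell by 1.88 and *Sp5* by 1.62 on the log2 scale, where *Sp5* had −1.01 with normexp background correction. The cell cycle genes *Ccnd1* and *Myc* rose by 1.75 and 1.24, the latter with overlapping values, since -/-_2866, at −0.52, lay below +/+_1024. The call of *Myc* held in 7 of 19 alternatives, and without each animal other than -/-_2866 its adjusted p was 0.102 to 0.285.

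The genes of hepatocytes around the central vein that depend on Wnt were lower wherever they were called. Of 10 tested, 5 were lower (50%) and 0 higher, against 19.6% lower and 14.6% higher among all tested genes. Under each of 4 other scalings, 4 or 5 were lower and 0 higher. The list was chosen with earlier results of these data known, so its share cannot show an excess over the array. *Glul*, glutamine synthetase, read 7.01, 6.96, 7.37 and 7.24 in *Rbpj*+/+ and 5.60, 5.45 and 6.25 in *Rbpj*-/- liver (−1.38, limma adjusted p = 0.00581). *Cyp2e1*, a cytochrome P450 of ethanol metabolism, fell from a range of 9.13 to 9.94 to a range of 8.07 to 8.58 (−1.20, adjusted p = 0.0115). The -/-_2866 animal was the nearest to the *Rbpj*+/+ group in both. Of the 5 genes, *Axin2* and *Tbx3* also stand in the target list, and the call of *Axin2* did not hold in every fit. *Slc1a2* (−0.69), *Lect2* (−0.43), *Lgr5* (−0.35), *Oat* (−0.0049) and *Rhbg* (0.15) of the same zone did not pass. In whole liver, fewer cells of a type and less RNA per cell cannot be told apart.

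Marker lists of liver cell types moved in the same animals. Of 7 hepatocyte markers, 4 were lower and 0 higher, while *Hnf4a* (−0.32), *Tat* (0.52) and *Cps1* (0.94) were not called. The summed level of the 7, in units of the 75th percentile, was 2089 to 2863 in *Rbpj*+/+ and 1428 to 1712 in *Rbpj*-/- liver. Such sums weigh the brightest probes most, and the mean log2 levels of the 7 overlapped, at 7.44 to 8.18 and 7.37 to 7.69. The direction of the called hepatocyte markers turned with the scaling, since 2 were higher and 1 lower with quantile normalization and in the series matrix. The direction of most called markers of each other cell type, given next, was the same under 4 other scalings. Of 9 endothelial markers, 5 were higher and 1 (*Kdr*) was lower, with sums of 55.4 to 81.0 and 97.1 to 148. Stellate cell and fibroblast markers were higher in 8 of 11 genes and lower in 0, with sums of 100 to 169 and 189 to 213, and macrophage markers in 6 of 7, with sums of 113 to 146 and 384 to 489. Neutrophil markers were higher in 4 of 4 tested, with sums of 2.91 to 19.8 and 30.9 to 67.8, and lymphocyte markers were lower in 4 of 6, with sums of 12.1 to 16.3 and 7.85 to 10.8. Of 7 cholangiocyte markers, 4 were tested, 2 of them (*Spp1*, *Sox9*) higher, while the keratin genes *Krt7* (−0.45) and *Krt19* (0.25) were not called. The sums of the 4 were 2.50 to 3.58 and 4.38 to 10.9, with *Spp1* the brightest probe. Their mean log2 levels overlapped, at −1.13 to −0.39 in *Rbpj*+/+ and −0.67 to 0.51 in *Rbpj*-/- liver. Every marker on the array was well above background on at least 1 array. The part of these shifts in the values of *Wnt9b*, *Dkk3*, *Frzb*, *Wls* and the central vein genes was not tested.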

How the data were processed

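Livers of 7 mice were read on arrays of 1 dye, 4 *Rbpj*+/+ and 3 *Rbpj*-/-. The intensity values deposited by the authors are background-subtracted signals per spot made with Agilent Feature Extraction 10.7.3.1 and not normalized across arrays. The log2 values of the series matrix, also deposited, match quantile-normalized intensities centred per probe (r = 1.00 on every array), and were used as an alternative. Control probes were dropped, as were spots that the scanner software called non-uniform or outlying (146 probe values, 0 of member probes). Replicate spots were averaged as log2 intensities, from which the array's 75th percentile was then subtracted. Tests used limma (version 3.58.1, R 4.3.3), in place of the shrinkage t statistic of the methods, at a false discovery rate of 0.1, with 24550 of 55681 probes tested. The number of arrays limits the precision. Single genes were also compared by exact two-sided permutation over the 35 splits of the animals.

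The members, the pathway lists and the marker lists were chosen with earlier results of these data known. Values are given for genes that passed, for receptors, ligands and antagonists of known liver expression, for up to 4 called genes per pathway list, and for *Ctnnb1*, *Wls*, *Rspo3*, *Axin2* and *Lgr5*. All 47 member probes were matched to current symbols by accession. The alternatives were other background correction, scaling, filters, weights, thresholds and probe rules, the series matrix, and each animal left out. Of the steps, only the limma fit was tested on simulated data. Tables and figures were made with Python 3.11.15 and matplotlib 3.10.9.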

Additional observations from a re-analysis of the deposited data

Results flagged for a closer look

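*Fzd2*, a receptor gene, had 1 *Rbpj*+/+ animal apart from the other 3. Array +/+_1156 read −5.26, while the others lay between −3.40 and −3.02, so that the gap to the nearest animal took 0.832 of the group's range. The probe was not well above background on +/+_1156, and 1 of the 4 *Rbpj*+/+ arrays was. Without +/+_1156 and -/-_N3 the log2 fold change of *Fzd2* was −0.25 in place of 0.66. Of 41 genes examined in this way, 1 was marked, and chance marks about 1 in 20 such groups.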

How the results depend on the processing

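Of the 7 genes, *Wnt10a*, *Dvl3* and *Dkk3* passed under every alternative that tested them, *Fzd8* under all but 1, *Wnt9b* under 14 of 18, *Wnt1* under 10 of 19 and *Fzd3* under 9 of 18. Requiring detection on all 7 arrays leaves *Wnt9b*, *Wnt10a* and *Fzd3* untested by construction. Without the filter for dim probes, 3 of 40 member genes passed, 5 of the other pathway genes and 1642 of all 35715 genes, where more probes were tested. Leaving out each animal gave 6 to 8 member genes, 12 to 21 other pathway genes and 3721 to 7109 of all genes, with the lowest number of the latter 2 without -/-_N5. In the series matrix 3144 genes were higher and 2587 lower, against 2741 and 3672 here, so which direction was more frequent turned with the scaling.

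Signs turned in genes that were not called and in *Fzd3*. With normexp background correction, the log2 fold changes were 0.14 for *Fzd1*, −0.24 for *Fzd2*, −0.11 for *Fzd3*, 0.011 for *Fzd4*, 0.046 for *Dvl1* and 0.13 for *Rspo3*. With the 75th percentile over detected probes they were 0.031 for *Fzd1* and 0.077 for *Rspo3*, and with array weights −0.094 for *Wnt5b* and 0.0064 for *Fzd6*. *Wnt11* had 0.099 with quantile normalization and 0.0998 in the series matrix. Without both +/+_1156 and -/-_N3 the values were −0.44 for *Wnt4*, −0.12 for *Wnt5b*, −0.25 for *Fzd2* and 0.077 for *Fzd6*. Leaving out each animal moved *Wnt4* between −0.52 and 0.56, *Wnt5b* between −0.051 and 0.23, *Wnt11* between −0.72 and 0.18, *Fzd1* between −0.23 and 0.061, *Fzd6* between −0.23 and 0.13, and *Rspo3* between −0.13 and 0.11. The causes were not tested. No paired analysis was possible because the genotypes share no animal numbers.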
